A study of Mus musculus with 16 samples.

Results

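The 49 genes described here make up the core of apoptosis and of the p53 response in mouse cells: genes of the Bcl2 family, the apoptosome, caspases and their inhibitors, death receptors and their adaptors, the necroptosis kinases, *Trp53* with its regulator *Mdm2*, and targets of p53. They were chosen by name for their part in these pathways, with earlier results of these data known, and each of them stood on 1 line of both deposited expression tables, out of 55471 lines in each. The RNA-seq experiment used neural stem cells (NSC) from cortices of C57BL/6 embryos at E15-16, pooled from both sexes, which grew with FGF2 (bFGF) and began to differentiate in Neurobasal medium 5 d after seeding. A lentivirus added 1 d after seeding carried either a scrambled shRNA (shRNA-CON) or an shRNA against the long noncoding RNA *RUS* (shRNA-RUS), and polyA RNA was sequenced on day 5 and on day 7, as 4 libraries per shRNA and day, 16 altogether. Every culture thus carried a lentiviral shRNA vector, which in the study's cloning scheme bears a puromycin resistance gene; whether puromycin was given to the sequenced cultures is not given in the sources used here. No uninfected group was analysed here, and 1 shRNA sequence stands for the knockdown. The labels and the methods differ in the medium, with 40 against 20 ng/ml of the growth factor. The question the comparison addresses is whether genes of cell death respond when *RUS* is lowered during differentiation.

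Apoptosis runs along an intrinsic and an extrinsic route. In the intrinsic route, BH3-only proteins neutralise the protective Bcl2 proteins or activate Bax and Bak1, which open the outer mitochondrial membrane; cytochrome c then leaves the mitochondria and assembles with Apaf1 and caspase 9 into the apoptosome. In the extrinsic route, death receptors of the TNF receptor family recruit Fadd and caspase 8. The transcription factor p53 raises several BH3-only genes and cell cycle inhibitors after DNA damage or other stress, and in the developing cortex both the surplus of progenitors and that of young neurons are trimmed by the intrinsic route. Many of these proteins are controlled after transcription, by cleavage, phosphorylation or degradation, which RNA levels do not show.

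Values are scaled TPM, that is, the deposited TPM, abundances corrected for transcript length with the same total in every library, of each library divided by a library factor that was set over the 16 libraries, so that levels can be read across groups and, being per transcript length, across genes. A gene was called when limma, fitted over all genes of a day on log2(scaled TPM + 0.1), gave a two-sided p under 0.05 after Benjamini-Hochberg adjustment, with 4 libraries against 4; fold changes are log2 values of shRNA-RUS over shRNA-CON with limma's standard error (SE), and they come from the fit of that day with its own library factors. All 49 genes passed the filter at a mean of 0.1 TPM on both days. The number of reads behind each library is unknown, since TPM keeps no depth; the authors' mean of normalized counts was under 100 on at least 1 day for 5 members, *Bik*, *Birc3*, *Ripk3*, *Mlkl* and *Gdf15*. Nothing in the labels says whether the 4 libraries came from separate isolations of cells, so p-values measure the spread between these libraries. In bulk RNA, fewer cells of a type and less RNA per cell cannot be told apart.

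A few facts of the whole experiment bear on these genes. The targeted transcript, listed as *Gm20754*, was low and variable, with a log2 fold change of −0.40 on day 5 (limma adjusted p = 0.519; exact permutation p = 0.543) and −1.28 on day 7 (limma adjusted p = 0.114; exact permutation p = 0.143). The decrease did not pass the test on either day, but on day 7 it did with the replicate block (limma adjusted p = 0.0358) and without replicate 1 of shRNA-RUS (−1.72, limma adjusted p = 0.0359). Its size turned on the pseudocount, from −0.054 with 1 to −1.19 with 0.01 on day 5 and from −0.34 to −2.37 on day 7. Replicate 4 of shRNA-RUS on day 5 lay nearer to the controls than the other 3 for several members, and the changes of day 5 whose call turns on it are given without it as well. Markers of neural stem cells were high in all libraries, and their summed scaled TPM (6 genes) moved with the shRNA, from 11555 to 13715 in shRNA-CON against 16820.0 to 20369 in shRNA-RUS on day 5 and from 6037 to 6362 against 6433 to 7025 on day 7. Of the 6, 3 were called higher and 2 lower on day 5, and 2 higher and 2 lower on day 7. The sum of 6 astrocyte markers lay between 4014 and 4138 in shRNA-CON and between 4917 and 5088 in shRNA-RUS on day 5, where 1 was called higher. It overlapped on day 7, where 2 were called higher and 2 lower. For 7 oligodendrocyte markers the summed means were 273 in shRNA-CON against 226 in shRNA-RUS on day 5, with overlapping sums and 4 called lower, and 388 and 251 on day 7, without overlap and with 6 called lower. The summed level of 11 microglia and macrophage markers overlapped on day 5, with 1 called higher and 3 lower, and lay between 438 and 486 in shRNA-CON and between 211 and 265 in shRNA-RUS on day 7, when all 11 were called lower. The summed means of 6 fibroblast and mural markers were 32.3 and 36.6 on day 5, with overlap, and 15.9 and 33.9 on day 7, in shRNA-CON and shRNA-RUS. Of the 5 tested, 1 was called higher on day 5 and 3 on day 7. Endothelial markers were near the floor, with sums from 5.56 to 5.94 in shRNA-CON against 2.85 to 3.88 in shRNA-RUS on day 5 and from 6.03 to 6.44 against 2.43 to 3.24 on day 7. On day 7, 1 of the 5 was at 0. Only 3 of the 5 passed the filter; 1 was called lower on each day, while their median log2 change was 0.24 on day 5 and 0.35 on day 7, against the direction of the sum. The sum of 7 neuron markers overlapped between the shRNAs on both days, while 2 were called higher and 2 lower on day 5 and 3 higher and 2 lower on day 7. Proliferation markers were called lower on both days, 6 of 6, with summed means of 661 and 388 on day 5 and 677 and 291 on day 7. The part of these shifts in the results below was not tested.

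To show what the p53 targets and their neighbours have in common in sequence, the 300 bases around each gene start (250 before to 50 after, RefSeq, GRCm38.p6) were searched for the consensus decamer of p53. A full p53 response element is made of a pair of these decamers, and the motif is its own reverse complement, so that a single search covers both strands. Windows were given for 43 of the 49 members, and 10 of them (23.3%) held the decamer, against 2582 of 27025 genes (9.6%) and 8.4% of all 32851 windows. Among the 14 p53 targets, 5 of the 11 with a window held it. *Bik*, *Perp*, *Pmaip1*, *Tnfrsf10b*, *Trp53inp1* and *Zmat3* had no window. The matches are printed 5′ to 3′ on the strand of the gene, 10 bases to either side, with the decamer in capitals and positions counted from the RefSeq start of the window, which is at 0. A gene has a window for each of its RefSeq starts. Of the 10 starts used here, 3 (*Bax*, *Mdm2* and *Trp53*) are the first base of the gene in the GENCODE annotation, those of *Ccng1*, *Ei24*, *Aen* and *Birc2* lie 25, 59, 73 and 258 bases inside it, and those of *Bmf*, *Polk* and *Sesn1* lie 5100 bases or more inside it.
Aen, chr7:78895927-78895956, plus strand, first base of the decamer at 10: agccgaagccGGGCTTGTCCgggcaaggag
Bax, chr7:45467080-45467109, minus strand, first base of the decamer at −201: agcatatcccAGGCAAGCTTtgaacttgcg
Birc2, chr9:7836777-7836806, minus strand, first base of the decamer at 10: cagtcaacccAGGCTAGTCTcgaatttgcg
Bmf, chr2:118544781-118544810, minus strand, first base of the decamer at −213: cccaagtgaaGGGCTTGCCTcttgccgaat
Ccng1, chr11:40755452-40755481, minus strand, first base of the decamer at −185: agacctgcccGGGCAAGCCTtggcactgaa
Ei24, chr9:36797325-36797354, minus strand, first base of the decamer at −10: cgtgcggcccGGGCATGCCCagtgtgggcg
Mdm2, chr10:117710925-117710954, minus strand, first base of the decamer at −186: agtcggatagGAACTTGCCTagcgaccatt
Polk, chr13:96519399-96519428, minus strand, first base of the decamer at −231: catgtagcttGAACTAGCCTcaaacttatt
Sesn1, chr10:41887256-41887285, plus strand, first base of the decamer at −173: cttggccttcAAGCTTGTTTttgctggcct
Trp53, chr11:69580274-69580303, plus strand, first base of the decamer at −75: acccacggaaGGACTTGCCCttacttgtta
These matches are descriptions of the letters and not sites of binding. The 10 genes did not share a direction: on day 5, 1 was called higher, 4 lower and 5 were not called, and on day 7, 3 were called higher, 3 lower and 4 were not called. Of the 33 members whose window held no match, 11 were called higher and 10 lower on day 5, and 13 higher and 8 lower on day 7. Over all genes, 32.7% were called on day 5 and 49.2% on day 7 (43.7% and 65.3% of those that averaged 1 TPM or more).

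Expression levels spanned a wide range. Over the 16 libraries, 7 members had a mean of at least 100 scaled TPM, 31 lay between 10 and 100, 10 between 1 and 10, and *Bik* lay under 1. The cyclin gene *Ccng1* was the highest, with group means from 250.4 to 434, followed by *Bax* (177 to 295), *Phlda3* (87.7 to 324), *Ei24* (171 to 196) and *Tnfrsf1a* (52.1 to 197). The lowest after *Bik* were *Mlkl*, *Birc3*, *Hrk* and *Ripk3*, with means over all libraries from 1.16 to 1.81. The effector *Bax* and the protective gene *Bcl2l1* were thus among the abundant members, and the necroptosis genes *Ripk3* and *Mlkl* among the scarce ones.

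Members moved in both directions in shRNA-RUS. On day 5, 12 members were called higher and 17 lower (29 of 49, 59.2%); over all genes 32.7% were called, 14.8% higher and 17.9% lower. Among genes that averaged 1 TPM or more the share was 43.7% (21% higher and 22.8% lower). On day 7, 19 members were called higher and 13 lower (65.3%), over all genes 49.2% were called (23.4% higher and 25.8% lower), and among genes that averaged 1 TPM or more 65.3%, which is the share of the members. Groups did not overlap for 29 members on day 5 and for 29 on day 7, against 32.8% and 47% of all genes. This share was not taken among genes that averaged 1 TPM or more, which were called more often, so no excess of the members follows from it. The median log2 fold change of the members was −0.10 on day 5 and 0.046 on day 7, beside −0.061 and −0.029 over all genes, and the changes were mostly small: 1 member on day 5 (*Pmaip1*) and 2 on day 7 (*Tnfrsf1a* and *Ripk3*) reached a log2 fold change of 1 in size. The split of day 5 depends on the scaling between libraries: with TPM as deposited, which moved the median of all genes to −0.205, 7 members were called higher and 25 lower, and with scaling to the 75th percentile 8 and 22. Without replicate 4 of shRNA-RUS the counts of day 5 were 14 higher and 20 lower, and without replicate 3 of shRNA-CON 9 and 11. With the replicate block they were 8 and 10.

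**Figure D1:**
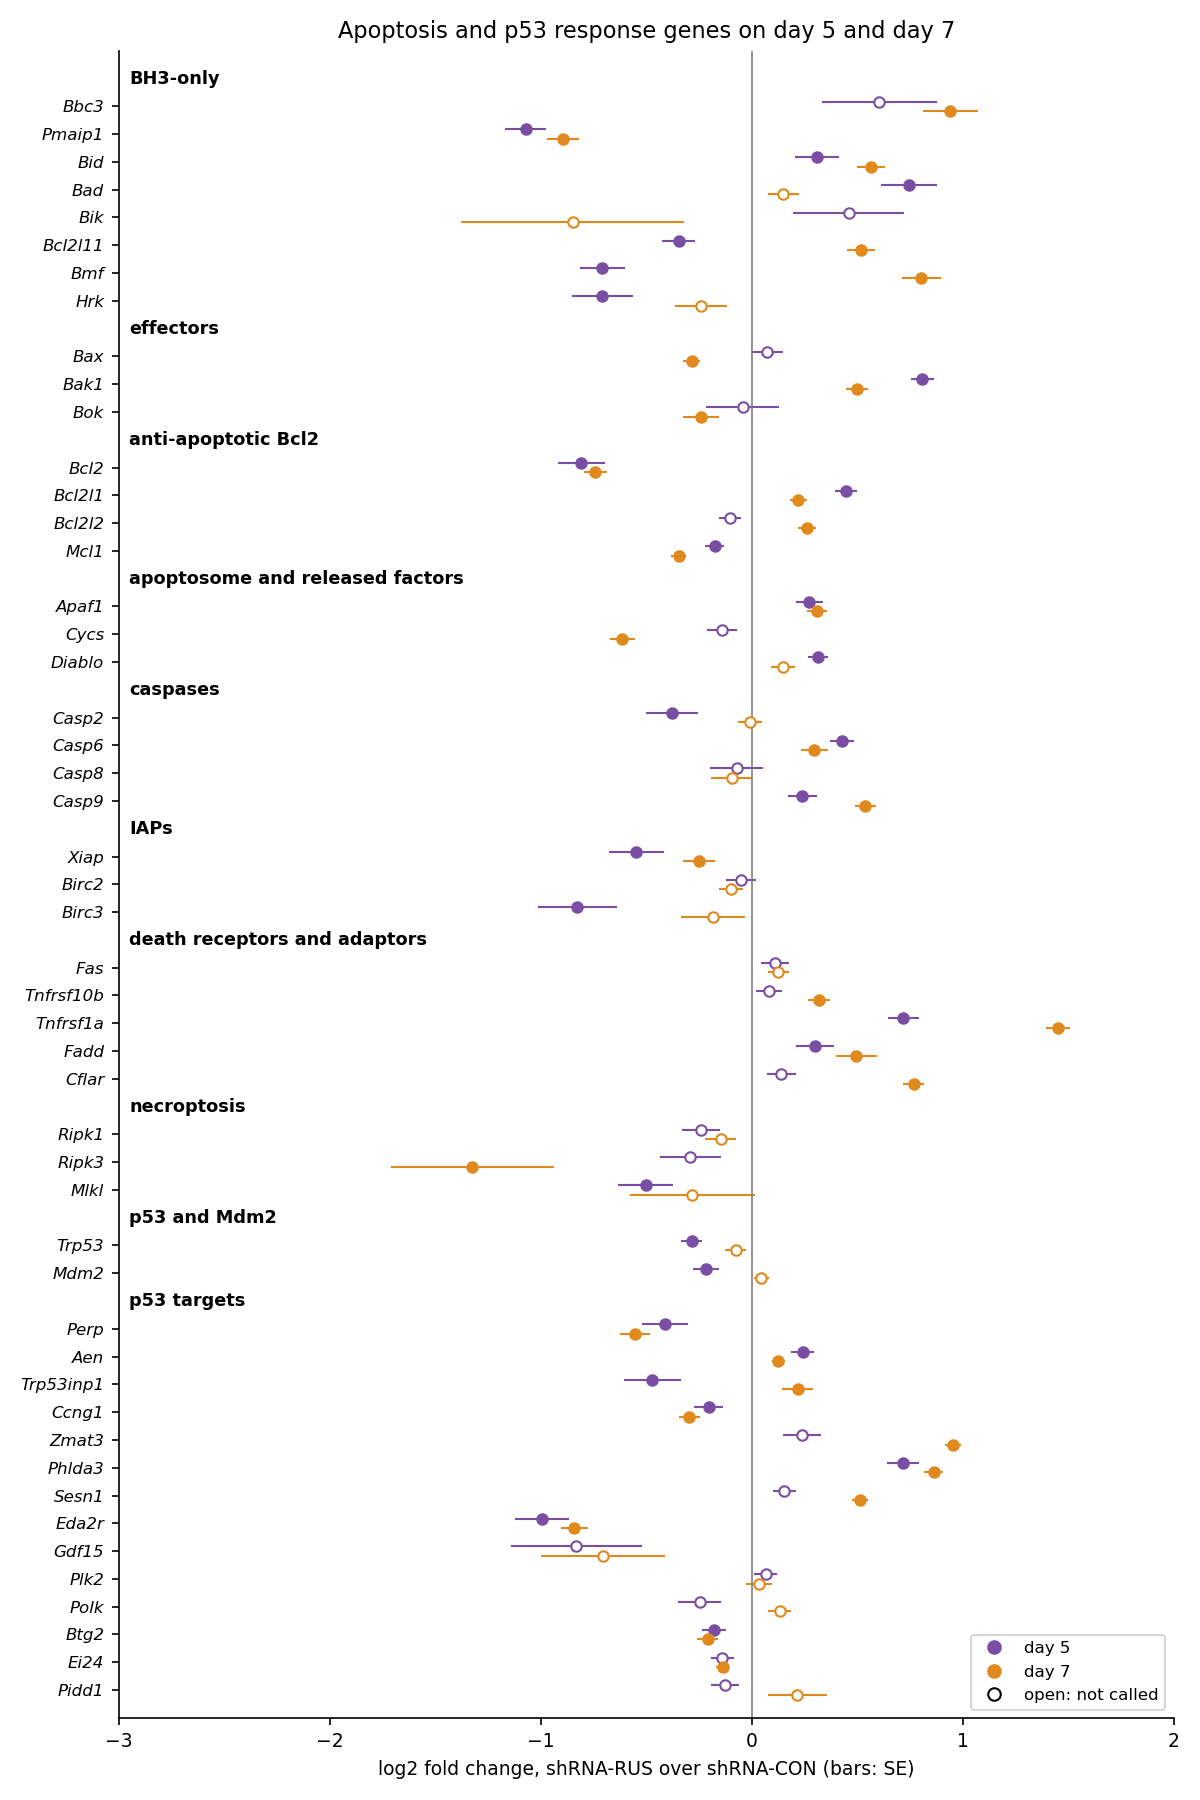
Log2 fold change of shRNA-RUS over shRNA-CON (x axis) for the 49 members, ordered by role (y axis), on day 5 (purple) and day 7 (orange); points are limma estimates from 4 against 4 libraries, bars are the SE, and open points were not called. Within most roles members lie on both sides of 0, while the receptors *Tnfrsf1a* and *Tnfrsf10b* and the adaptors *Fadd* and *Cflar* lie to the right on both days and *Pmaip1*, *Bcl2* and *Eda2r* to the left.

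Both days together, 40 members were called at least once: 10 were higher on both days, 8 lower on both, 8 were called on day 5 alone and 11 on day 7 alone. Over the 21791 genes tested on both days, 62.6% were called at least once, 9.69% higher on both, 12% lower on both, 8.97% on day 5 alone, 28.9% on day 7 alone and 2.95% in opposite directions. Among those that averaged 1 TPM or more on both days, these shares were 77.2%, 13.8%, 15.8%, 10.5%, 33.1% and 4.1%. Members called in opposite directions were *Bcl2l11*, *Bmf* and *Trp53inp1*, lower on day 5 and higher on day 7. Not called on either day were 9 members, *Bik*, *Casp8*, *Birc2*, *Fas*, *Ripk1*, *Gdf15*, *Plk2*, *Polk* and *Pidd1*. Of these, *Casp8*, *Birc2* and *Plk2* were not called in any alternative either.

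The BH3-only genes, which start the intrinsic route, were divided on day 5, with 2 higher, 4 lower and 2 not called of 8 and, on day 7, gave 4 higher, 1 lower and 3 not called. Over all genes, 14.8% were higher and 17.9% lower on day 5, and 23.4% and 25.8% on day 7. Among genes that averaged 1 TPM or more, these shares were 21% and 22.8% on day 5, and 32% and 33.2% on day 7. *Pmaip1* (Noxa, which binds Mcl1) fell on both days. On day 5 its libraries had 13.3, 15.1, 13.4 and 12.6 scaled TPM in shRNA-CON against 6.51, 6.33, 5.56 and 7.33 in shRNA-RUS, a change of −1.07 (log2, SE 0.096, limma adjusted p = 6.89e-05). On day 7 the values were 15.4, 18.9, 18.3 and 18.4 in shRNA-CON against 9.42, 9.05, 8.88 and 10.2 in shRNA-RUS, a change of −0.90 (log2, SE 0.076, limma adjusted p = 1.02e-05). The groups lay apart on both days, and this was the largest decrease on day 5 among the 49. *Bbc3* (Puma, which binds all protective Bcl2 proteins and, like *Pmaip1*, is a classic p53 target) took the other direction on day 7, with 19.1, 17.8, 23.0 and 15.1 scaled TPM in shRNA-CON against 29.6, 37.7, 37.1 and 37.8 in shRNA-RUS, a change of 0.94 (log2, SE 0.13, limma adjusted p = 0.000228). Its day 5 values were 13.7, 17.5, 19.3 and 23.1 in shRNA-CON against 28.4, 38.9, 33.6 and 15.5 in shRNA-RUS, a change of 0.61 (log2, SE 0.27, limma adjusted p = 0.12). Replicate 4 lay inside the control range while the other 3 lay above it, and without that library it was 0.88 on the log2 scale (limma adjusted p = 0.00476).

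*Bcl2l11* (Bim) and *Bmf*, BH3-only genes whose products bind every or most protective members, changed sign between the days. For *Bmf*, on the minus strand of chromosome 2 (118528757 to 118549687), shRNA-CON had 9.65, 7.33, 7.36 and 8.31 scaled TPM on day 5 and shRNA-RUS 5.10, 4.80, 4.46 and 5.34, a change of −0.71 (log2, SE 0.11, limma adjusted p = 0.000988). On day 7, shRNA-CON had 4.85, 5.04, 5.11 and 5.19 and shRNA-RUS 7.72, 10.3, 8.16 and 9.25, a change of 0.80 (log2, SE 0.091, limma adjusted p = 6.7e-05). The control cultures thus lost *Bmf* between the days while the knockdown cultures gained it, and no library of one shRNA overlapped with the other on either day. The difference of the effect between the days was 1.50 on the log2 scale (SE 0.14, limma adjusted p = 5.13e-06), the highest among the members. *Bcl2l11* had 15.0, 13.0, 12.9 and 12.7 scaled TPM in shRNA-CON against 10.5, 10.5, 9.63 and 11.3 in shRNA-RUS on day 5, a change of −0.35 (log2, SE 0.078, limma adjusted p = 0.00808). By day 7 it had 12.1, 13.3, 13.1 and 11.7 in shRNA-CON against 18.8, 16.9, 16.6 and 19.0 in shRNA-RUS, a change of 0.52 (log2, SE 0.066, limma adjusted p = 0.000147). Here the day difference of the controls was not called (day 7 over day 5, log2 change −0.09, adjusted p = 0.318) and the knockdown cultures rose (log2 change 0.76, adjusted p = 1.86e-07), which gives a difference between the days of 0.85 (SE 0.10, limma adjusted p = 2.96e-05).

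*Bad*, whose product is held inactive by growth factor signalling and binds Bcl2 and Bcl2l1, moved on day 5. The libraries had 69.7, 70.3, 74.9 and 80.0 scaled TPM in shRNA-CON against 136, 140.4, 133 and 90.8 in shRNA-RUS, a change of 0.74 (log2, SE 0.13, limma adjusted p = 0.0024). Replicate 4 of shRNA-RUS lay well below the other 3 but still above every control. On day 7 the groups overlapped, with 85.6, 82.3, 80.5 and 70.8 in shRNA-CON against 88.3, 83.3, 97.5 and 81.4 in shRNA-RUS, a change of 0.15 (log2, SE 0.075, limma adjusted p = 0.13), and the difference between the days was called (−0.61, SE 0.16, limma adjusted p = 0.00969). Exons of *Bad* share 20.5% of their bases with *Gpr137* on the opposite strand, and whether reads were counted by strand is not given in the sources used here. Of the remaining BH3-only genes, *Bid*, which caspase 8 cleaves to link both routes, was higher on day 7 (log2 change 0.57, adjusted p = 7.58e-05) and, with overlapping groups, on day 5 (log2 change 0.31, adjusted p = 0.0489; lost in 11 of 18 alternatives). *Hrk*, a BH3-only gene of neurons, was low, at 1.21 ± 0.128 scaled TPM in shRNA-CON on day 5, and lower in shRNA-RUS (log2 change −0.71, adjusted p = 0.00527); on day 7 it had a log2 change of −0.24 (adjusted p = 0.143).

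Among the effectors, *Bak1* rose on both days while *Bax* fell on day 7 and did not pass the test on day 5. *Bak1* had 32.6, 31.5, 33.2 and 31.1 scaled TPM in shRNA-CON against 54.5, 59.9, 56.5 and 54.1 in shRNA-RUS on day 5, and on day 7 36.0, 36.1, 36.0 and 31.6 in shRNA-CON and 47.1, 49.2, 50.4 and 48.6 in shRNA-RUS. Every knockdown library lay above every control of its day. The log2 change was 0.81 on day 5 (SE 0.054, limma adjusted p = 1.9e-05) and 0.50 on day 7 (SE 0.054, limma adjusted p = 4.77e-05), a difference of −0.32 (SE 0.070, limma adjusted p = 0.00297). *Bax*, on the minus strand of chromosome 7 (45461697 to 45466898), had 272, 290.1, 269 and 289 scaled TPM in shRNA-CON against 291, 331, 301 and 258 in shRNA-RUS on day 5, a change of 0.07 (log2, SE 0.076, limma adjusted p = 0.499). The knockdown libraries spread around the controls there. On day 7, shRNA-CON had 228, 214, 226 and 204 and shRNA-RUS 181, 180.2, 172 and 174, a change of −0.29 (log2, SE 0.042, limma adjusted p = 0.000355), without overlap, and the difference between the days was −0.37 (limma adjusted p = 0.00454). Exons of *Bax* share 12.2% of their bases with *Gm45808* on the same strand and those of *Bak1* up to 18.2% with *Ggnbp1* on the opposite strand; *Bid* shares 17.7% with *Bcl2l13*, and *Bcl2*, *Casp9*, *Ei24*, *Fadd*, *Ripk1* and *Cdkn1a* share 1.8% to 7.7% with a neighbour. *Bok*, the third effector, had a log2 change of −0.04 (adjusted p = 0.877) on day 5 and −0.24 (adjusted p = 0.0413) on day 7, where the groups overlapped.

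The protective Bcl2 genes did not move as a block. *Bcl2* fell on both days, from 12.6, 11.4, 12.04 and 10.7 scaled TPM in shRNA-CON to 6.13, 6.57, 5.78 and 8.20 in shRNA-RUS on day 5, a change of −0.81 (log2, SE 0.11, limma adjusted p = 0.00065). Day 7 values were 15.6, 17.0, 17.3 and 18.3 in shRNA-CON against 10.03, 10.3, 10.1 and 9.81 in shRNA-RUS, a change of −0.74 (log2, SE 0.055, limma adjusted p = 4.56e-06). The groups lay far apart, and in each of them *Bcl2* was higher on day 7 than on day 5. *Bcl2l1* (Bcl-xL), the most abundant of the 4, rose. It had 106, 101, 96.6 and 106 scaled TPM in shRNA-CON against 144, 141, 141 and 131 in shRNA-RUS on day 5, a change of 0.45 (log2, SE 0.052, limma adjusted p = 0.000256). On day 7 the values were 92.2, 90.1, 99.0 and 90.6 in shRNA-CON and 111, 106, 105 and 107 in shRNA-RUS, a change of 0.22 (log2, SE 0.038, limma adjusted p = 0.001). The groups did not overlap, and the effect was smaller on day 7 (difference −0.24, limma adjusted p = 0.00889). The call of that difference was lost with TPM as deposited and with quantile normalization.

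*Mcl1*, a short-lived protective protein that *Pmaip1* antagonises, fell modestly on both days. The libraries of day 5 had 80.8, 86.8, 81.9 and 82.2 scaled TPM in shRNA-CON against 74.0, 72.0, 73.5 and 73.6 in shRNA-RUS, a change of −0.18 (log2, SE 0.044, limma adjusted p = 0.0139). Those of day 7 had 91.5, 96.1, 98.4 and 98.7 in shRNA-CON and 76.9, 75.9, 73.6 and 73.1 in shRNA-RUS, a change of −0.35 (log2, SE 0.035, limma adjusted p = 3.08e-05). All knockdown libraries lay below all controls of their day, and the difference between the days was −0.18 (limma adjusted p = 0.0131). *Bcl2l2* (Bcl-w) had 25.9, 23.7, 25.4 and 25.7 scaled TPM in shRNA-CON against 23.1, 23.1, 23.1 and 24.3 in shRNA-RUS on day 5, a change of −0.10 (log2, SE 0.053, limma adjusted p = 0.17). By day 7 it had 28.2, 29.0, 27.0 and 27.8 in shRNA-CON against 32.4, 32.4, 33.2 and 35.2 in shRNA-RUS, a change of 0.26 (log2, SE 0.043, limma adjusted p = 0.000667), with a difference between the days of 0.35 (limma adjusted p = 0.000632). Exons of *Bcl2l2* share 13.3% of their bases with *Gm20521* on the same strand.

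**Figure D2:**
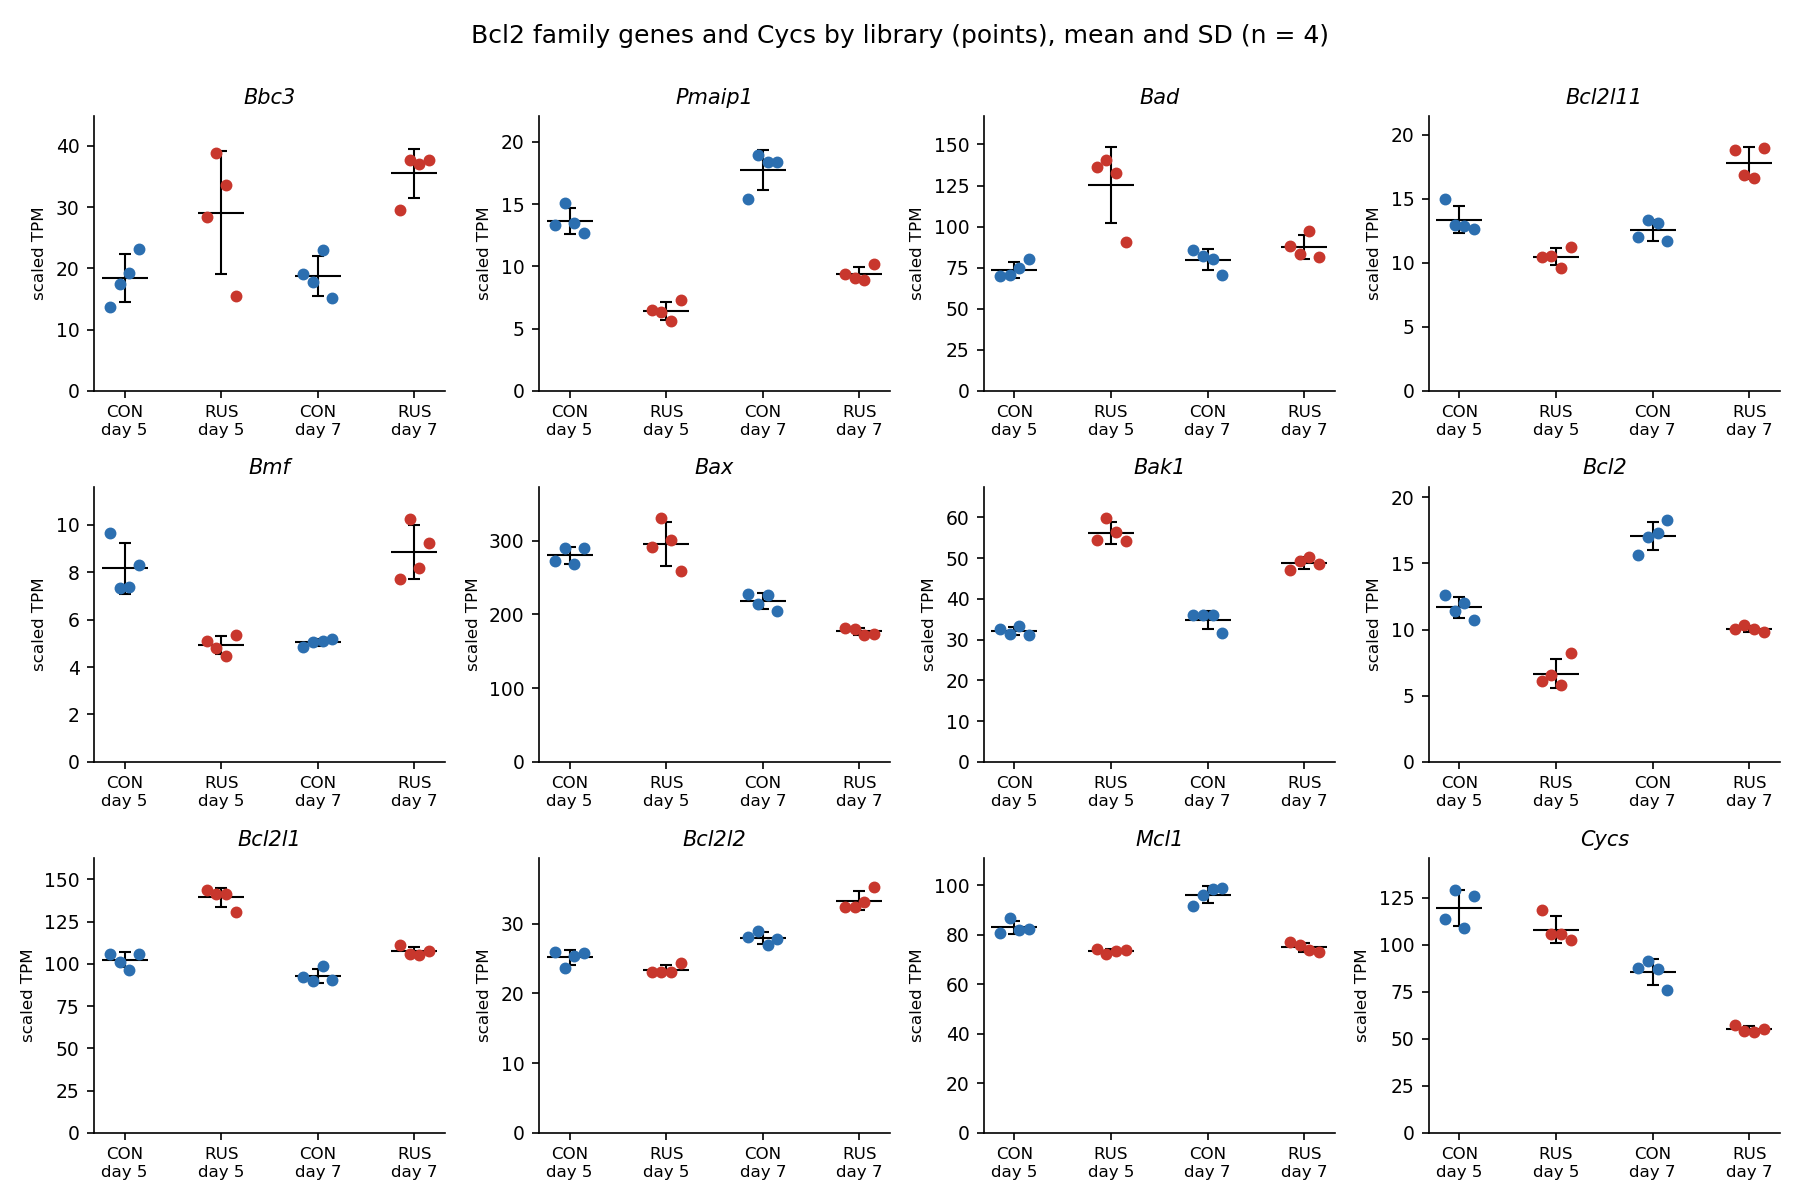
Scaled TPM (y axis, from 0) of 11 Bcl2 family genes and *Cycs* in each library of shRNA-CON (blue) and shRNA-RUS (red) on day 5 and day 7 (x axis); points are libraries, bars the mean and SD of 4. *Bmf* and *Bcl2l11* lie below the controls on day 5 and above them on day 7, *Pmaip1*, *Bcl2* and *Mcl1* lie below on both days, and *Bak1* and *Bcl2l1* lie above on both days.

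Ratios of 2 genes within a library need no scaling between libraries. They are given as descriptions without a test. The ratio of *Bax* to *Bcl2* in TPM was 21.6, 25.4, 22.3 and 27.0 in shRNA-CON on day 5 and 47.4, 50.4, 52.1 and 31.5 in shRNA-RUS. On day 7 it was 14.5, 12.6, 13.0 and 11.2 in shRNA-CON and 18.0, 17.4, 17.1 and 17.7 in shRNA-RUS. In shRNA-CON and shRNA-RUS the means were 24.1 ± 2.55 and 45.3 ± 9.42 on day 5 and 12.8 ± 1.39 and 17.6 ± 0.393 on day 7 (SD, n = 4). The knockdown libraries lay above the controls on both days, and the ratio was lower on day 7 than on day 5 with either shRNA. The higher ratio of day 7 came with less *Bax* and still less *Bcl2*. This ratio does not stand for effectors over protective genes as a whole. *Bcl2l1*, far more abundant than *Bcl2*, was called higher in shRNA-RUS on both days, while *Bax* was not called on day 5 and was lower on day 7. Against *Bcl2l1*, the mean of *Bax* was thus lower in shRNA-RUS. *Bak1* over *Mcl1* had means of 0.387 ± 0.0209 in shRNA-CON against 0.768 ± 0.0452 in shRNA-RUS on day 5 and of 0.364 ± 0.0314 and 0.653 ± 0.0307 on day 7. Within the protective genes, *Bcl2l1* over *Bcl2* had means of 8.79 ± 0.808 in shRNA-CON against 21.3 ± 3.79 in shRNA-RUS on day 5, and of 5.46 ± 0.419 and 10.7 ± 0.399 on day 7. *Bad* over *Bcl2l1* did not separate the groups. It was 0.659, 0.693, 0.776 and 0.756 in shRNA-CON on day 5 against 0.948, 0.994, 0.941 and 0.694 in shRNA-RUS, and its means on day 7 were 0.859 ± 0.0727 and 0.817 ± 0.0742, with overlap on both days. The share of *Bcl2* in the summed TPM of the 4 protective genes was 5.26 ± 0.398% and 2.75 ± 0.490% on day 5 and 7.28 ± 0.367% and 4.46 ± 0.129% on day 7, in shRNA-CON and shRNA-RUS.

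**Figure D3:**
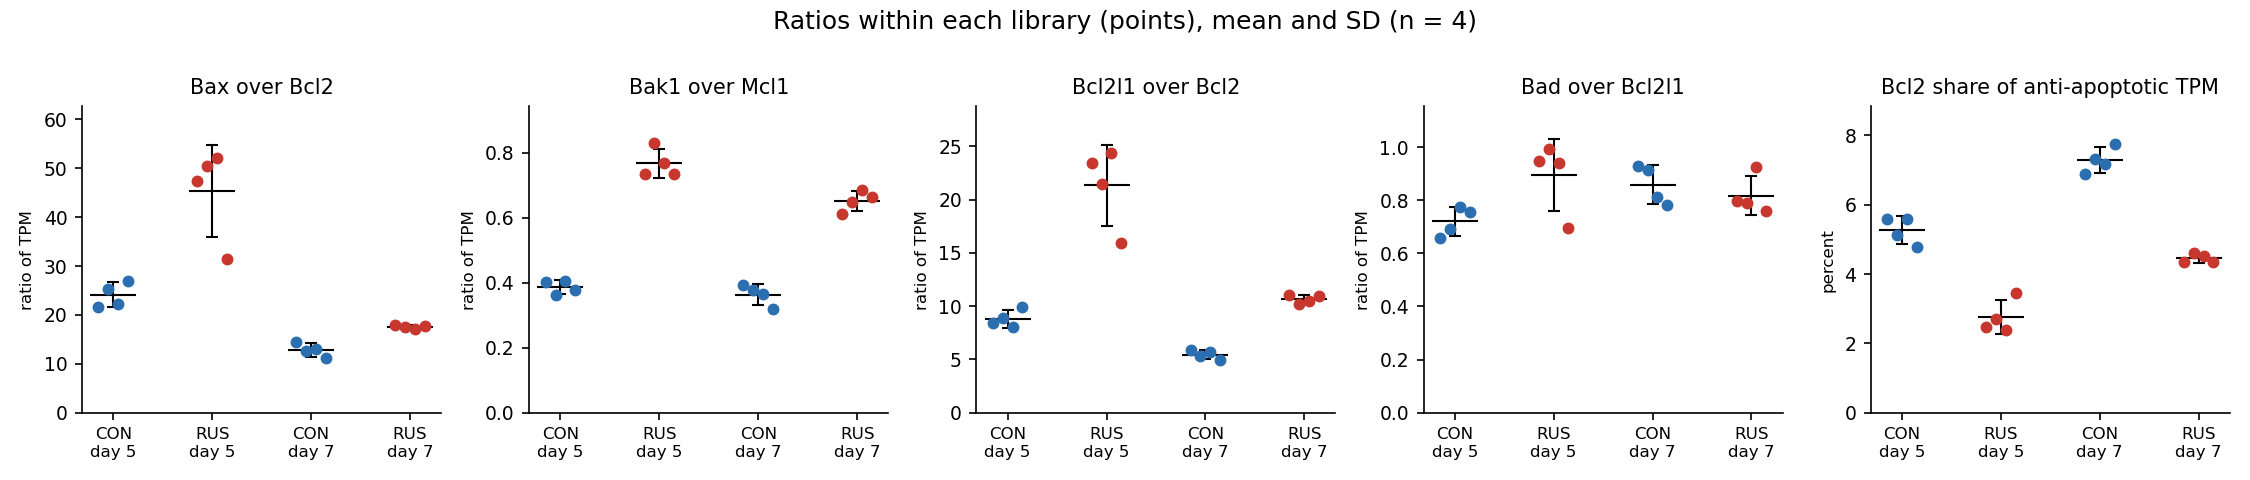
Ratios of TPM within each library (y axes, from 0; the panel of the *Bcl2* share in percent) in shRNA-CON (blue) and shRNA-RUS (red) on day 5 and day 7 (x axis), with the mean and SD of 4 libraries. *Bax* over *Bcl2*, *Bak1* over *Mcl1* and *Bcl2l1* over *Bcl2* lie higher in every knockdown library than in every control of that day, the share of *Bcl2* among the protective genes lies lower, and *Bad* over *Bcl2l1* overlaps on both days.

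Downstream of the mitochondria, the apoptosome genes split. *Cycs*, which encodes cytochrome c of the respiratory chain, had 114, 129, 109 and 126 scaled TPM in shRNA-CON against 119, 106, 106 and 103 in shRNA-RUS on day 5, a change of −0.14 (log2, SE 0.071, limma adjusted p = 0.164). On day 7 it fell from 87.8, 91.3, 87.2 and 75.9 in shRNA-CON to 57.6, 54.1, 53.9 and 55.3 in shRNA-RUS, a change of −0.61 (log2, SE 0.058, limma adjusted p = 2.09e-05). The groups overlapped on day 5 and lay apart on day 7, and the difference was −0.49 (limma adjusted p = 0.00128). *Casp9*, the initiator caspase of the apoptosome, had 11.0, 11.1, 10.6 and 11.1 scaled TPM in shRNA-CON against 11.97, 13.4, 12.5 and 14.0 in shRNA-RUS on day 5, a change of 0.24 (log2, SE 0.068, limma adjusted p = 0.0239); that call was lost without replicate 1 (0.24, adjusted p = 0.0549) or 3 (0.23, adjusted p = 0.071) of shRNA-CON or replicate 2 of shRNA-RUS (0.22, adjusted p = 0.0614). It was also lost in 3 further alternatives, with TPM as deposited (0.082, adjusted p = 0.5), scaling to the 75th percentile (0.16, adjusted p = 0.146) and the replicate block (0.24, adjusted p = 0.0822). On day 7, with 13.4, 12.6, 13.0 and 11.97 in shRNA-CON and 18.6, 17.8, 18.4 and 18.6 in shRNA-RUS, a change of 0.54 (log2, SE 0.050, limma adjusted p = 1.75e-05) was found, and no library overlapped. *Apaf1*, its scaffold, was higher on both days (log2 change 0.27, adjusted p = 0.0107, and log2 change 0.31, adjusted p = 0.000468). *Diablo*, which releases caspases from their inhibitors, was higher on day 5 (log2 change 0.31, adjusted p = 0.00119) and had a log2 change of 0.15 (adjusted p = 0.0581) on day 7; it shares 21.5% of its exon bases with *B3gnt4* and 19.3% with *Gm49027*.

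Of the other caspases, the executioner *Casp6* was higher on both days (log2 change 0.43, adjusted p = 0.000433, and log2 change 0.30, adjusted p = 0.00359), *Casp2* was lower on day 5 with overlapping groups (log2 change −0.38, adjusted p = 0.0409) and had a log2 change of −0.01 (adjusted p = 0.911) on day 7, and *Casp8*, the initiator at death receptors, had a log2 change of −0.07 (adjusted p = 0.704) and −0.10 (adjusted p = 0.454). Of the 3 inhibitors of apoptosis, 2 were called lower on day 5 and 1 on day 7, beside 17.9% and 25.8% of all genes (22.8% and 33.2% of those that averaged 1 TPM or more). *Birc3* (cIAP2) had 2.34, 1.55, 1.44 and 2.02 scaled TPM in shRNA-CON against 1.02, 1.20, 0.856 and 0.841 in shRNA-RUS on day 5, a change of −0.83 (log2, SE 0.19, limma adjusted p = 0.00894). The groups lay apart there and overlapped on day 7, with 1.57, 1.92, 1.75 and 1.41 in shRNA-CON and 1.73, 1.17, 1.53 and 1.34 in shRNA-RUS, a change of −0.19 (log2, SE 0.15, limma adjusted p = 0.357). *Xiap*, which blocks caspases directly, was lower on both days (log2 change −0.55, adjusted p = 0.0107, and log2 change −0.25, adjusted p = 0.0233), and *Birc2* had a log2 change of −0.05 (adjusted p = 0.624) and −0.10 (adjusted p = 0.197).

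The death receptors and their adaptors were higher or not called, with 2 of 5 called higher on day 5, 4 of 5 on day 7 and none lower. Of all genes, 14.8% and 23.4% were called higher on these days (21% and 32% of those that averaged 1 TPM or more). *Tnfrsf1a*, the receptor of TNF, on the plus strand of chromosome 6 (125349362 to 125362484), showed the largest increase among the members on day 7. Its day 5 values were 113, 124, 118 and 122 scaled TPM in shRNA-CON against 177, 208, 217 and 184 in shRNA-RUS, a change of 0.72 (log2, SE 0.073, limma adjusted p = 0.000129). Libraries of day 7 had 51.7, 51.8, 54.1 and 50.9 in shRNA-CON against 129, 138, 142 and 157 in shRNA-RUS, a change of 1.45 (log2, SE 0.058, limma adjusted p = 1.83e-07). All knockdown libraries lay above all controls of their day. The controls fell by 1.19 on the log2 scale between the days and the knockdown cultures by 0.47 (with TPM as deposited −0.15, adjusted p = 0.0666), so that the effect was larger on day 7 (difference 0.72, SE 0.094, limma adjusted p = 6.53e-05).

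*Cflar* (c-FLIP), which keeps caspase 8 from being activated at these receptors, was called higher on day 7 as well. The libraries had 23.8, 23.6, 25.9 and 25.7 scaled TPM in shRNA-CON against 44.0, 41.0, 39.5 and 42.6 in shRNA-RUS, a change of 0.77 (log2, SE 0.048, limma adjusted p = 1.72e-06). On day 5 they had 25.1, 23.3, 21.8 and 21.9 in shRNA-CON and 24.8, 24.3, 24.3 and 27.9 in shRNA-RUS, a change of 0.14 (log2, SE 0.069, limma adjusted p = 0.157). The groups overlapped on day 5 and lay far apart on day 7, a difference of 0.61 (SE 0.086, limma adjusted p = 0.000106). *Tnfrsf10b*, the TRAIL receptor and a p53 target, had 13.8, 13.6, 14.4 and 13.9 scaled TPM in shRNA-CON against 16.3, 17.2, 16.9 and 18.5 in shRNA-RUS on day 7, a change of 0.32 (log2, SE 0.051, limma adjusted p = 0.000614). On day 5 its values were 15.8, 15.4, 15.2 and 13.8 in shRNA-CON and 16.0, 16.3, 15.3 and 16.1 in shRNA-RUS, a change of 0.08 (log2, SE 0.061, limma adjusted p = 0.353). The groups overlapped there, and the difference between the days (0.23, limma adjusted p = 0.03) lost its call in 10 of 25 alternatives, 8 of them fits that left out 1 library, of either shRNA and day (0.19 to 0.23). *Fadd*, the adaptor, was higher on both days (log2 change 0.30, adjusted p = 0.0317, and log2 change 0.50, adjusted p = 0.00223), and *Fas* had a log2 change of 0.11 (adjusted p = 0.246) and 0.13 (adjusted p = 0.0584). The change of day 7 passed the test in 4 of 18 alternatives, among them the fits without replicate 1 of shRNA-CON (0.15, adjusted p = 0.0485) and without replicate 3 of shRNA-RUS (0.15, adjusted p = 0.0436).

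In the necroptosis branch, which kills without caspases, 1 of 3 genes was called lower on each day, *Mlkl* on day 5 and *Ripk3* on day 7, beside 17.9% and 25.8% of all genes (22.8% and 33.2% of those that averaged 1 TPM or more). *Ripk3* was scarce, with group means of 3.17 and 2.59 scaled TPM on day 5 and 1.09 and 0.378 on day 7 in shRNA-CON and shRNA-RUS; its log2 changes were −0.29 (adjusted p = 0.157) and −1.33 (adjusted p = 0.0176), with overlapping groups on both days, and the call of day 7 was lost without replicate 1 (−1.13, adjusted p = 0.0518) or 2 (−1.17, adjusted p = 0.0517) of shRNA-CON. *Mlkl*, which breaches the plasma membrane, was lower on day 5 (log2 change −0.50, adjusted p = 0.0161) and had a log2 change of −0.28 (adjusted p = 0.468) on day 7, and *Ripk1* had a log2 change of −0.24 (adjusted p = 0.0657) and −0.15 (adjusted p = 0.13); without replicate 4 of shRNA-RUS its change on day 5 was −0.32 (adjusted p = 0.006). *Ripk3* and *Mlkl* are also genes of macrophages, and the microglia markers were lower in shRNA-RUS on day 7 as given above; the part of that in these values was not tested.

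*Trp53* and *Mdm2*, the ubiquitin ligase that degrades p53 and is itself its target, were both lower on day 5 and not called on day 7. *Trp53* had 78.1, 72.8, 73.0 and 73.7 scaled TPM in shRNA-CON against 57.7, 62.3, 62.1 and 61.5 in shRNA-RUS on day 5, a change of −0.29 (log2, SE 0.049, limma adjusted p = 0.00201). Day 7 values were 59.7, 57.7, 53.4 and 55.4 in shRNA-CON and 49.8, 53.002, 53.8 and 55.7 in shRNA-RUS, a change of −0.08 (log2, SE 0.049, limma adjusted p = 0.231). The groups lay apart on day 5 and overlapped on day 7; the difference between the days, 0.20 (limma adjusted p = 0.0328), was lost in 7 of the fits that left out 1 library, of either shRNA and day (0.17 to 0.20, adjusted p up to 0.0743). *Mdm2* had 75.8, 69.4, 69.8 and 70.2 scaled TPM in shRNA-CON against 61.2, 57.0, 59.0 and 68.2 in shRNA-RUS on day 5, a change of −0.22 (log2, SE 0.063, limma adjusted p = 0.027). On day 7 the values were 88.4, 86.2, 85.7 and 86.9 in shRNA-CON and 86.1, 87.3, 87.8 and 93.8 in shRNA-RUS, a change of 0.05 (log2, SE 0.035, limma adjusted p = 0.324), and the difference was 0.25 (limma adjusted p = 0.016). The decrease of *Mdm2* on day 5 was small, and leaving out any 1 of 6 libraries (replicates 1, 3 and 4 of shRNA-CON and 1, 2 and 3 of shRNA-RUS) ended its call (−0.23 to −0.18, adjusted p from 0.0534 to 0.077), as did the replicate block (adjusted p = 0.0778) and the fit without a trend (adjusted p = 0.0591). The ratio of *Mdm2* to *Trp53* in TPM was 0.959 ± 0.00845 and 1.01 ± 0.0908 on day 5, and 1.54 ± 0.0594 and 1.67 ± 0.0425 on day 7, in shRNA-CON and shRNA-RUS; it was higher on day 7 with either shRNA.

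Of the 14 p53 targets, 2 were called higher, 5 lower and 7 not called on day 5 (14.3% higher and 35.7% lower, beside 14.8% and 17.9% of all genes, or 21% and 22.8% of those that averaged 1 TPM or more). On day 7, 5 were higher, 5 lower and 4 not called, 35.7% in each direction beside 23.4% and 25.8% of all genes, or 32% and 33.2% of those that averaged 1 TPM or more. *Phlda3*, which restrains the survival kinase Akt, rose on both days. It had 186, 204, 199 and 199 scaled TPM in shRNA-CON against 299.8, 362, 340.3 and 293 in shRNA-RUS on day 5, a change of 0.71 (log2, SE 0.076, limma adjusted p = 0.000153). At day 7 it had 94.0, 87.1, 85.8 and 83.8 in shRNA-CON and 151, 163, 154 and 164 in shRNA-RUS, a change of 0.86 (log2, SE 0.046, limma adjusted p = 7.19e-07). The groups lay apart on both days, against a decline in both shRNAs between them (−1.17 in shRNA-CON and −1.03 in shRNA-RUS, log2 of day 7 over day 5). *Eda2r*, a receptor of the TNF family that p53 induces, went the other way. Its day 5 values were 25.2, 21.7, 22.9 and 20.2 scaled TPM in shRNA-CON against 12.2, 10.2, 9.08 and 13.8 in shRNA-RUS, a change of −0.99 (log2, SE 0.13, limma adjusted p = 0.000472). By day 7 it had 23.9, 26.4, 26.2 and 29.0 in shRNA-CON and 14.9, 13.7, 14.3 and 15.2 in shRNA-RUS, a change of −0.84 (log2, SE 0.062, limma adjusted p = 4.46e-06), and the groups did not overlap on either day.

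*Zmat3*, an RNA-binding zinc finger gene of the p53 response, and *Sesn1*, a stress gene that restrains mTORC1, rose on day 7. *Zmat3* had 24.4, 24.0, 22.9 and 22.8 scaled TPM in shRNA-CON against 44.5, 45.6, 44.5 and 46.1 in shRNA-RUS on day 7, a change of 0.95 (log2, SE 0.038, limma adjusted p = 1.83e-07). Its day 5 values were 32.1, 26.5, 27.4 and 26.3 in shRNA-CON and 30.7, 33.2, 30.7 and 37.7 in shRNA-RUS, a change of 0.24 (log2, SE 0.088, limma adjusted p = 0.0679), and without replicate 1 of shRNA-CON 0.30 (adjusted p = 0.0297). The effects of the days differed by 0.70 (SE 0.098, limma adjusted p = 0.000111). *Sesn1* had 47.6, 48.6, 47.5 and 51.4 scaled TPM in shRNA-CON against 69.5, 71.6, 66.8 and 67.9 in shRNA-RUS on day 7, a change of 0.51 (log2, SE 0.037, limma adjusted p = 4.01e-06). On day 5 the values were 64.5, 66.5, 68.9 and 64.7 in shRNA-CON and 79.9, 70.1, 72.7 and 71.7 in shRNA-RUS, a change of 0.15 (log2, SE 0.054, limma adjusted p = 0.0558); the groups lay apart without passing the test, and without replicate 4 of shRNA-RUS the change was 0.17 (adjusted p = 0.045). The effect on day 7 exceeded that on day 5 by 0.35 (limma adjusted p = 0.000903).

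*Trp53inp1*, a p53-induced gene that also acts in autophagy, was the third gene with calls of opposite sign. Its day 5 values were 63.1, 55.8, 56.5 and 48.3 scaled TPM in shRNA-CON against 44.5, 35.3, 32.8 and 49.8 in shRNA-RUS, a change of −0.47 (log2, SE 0.13, limma adjusted p = 0.0246). Libraries of day 7 had 65.5, 71.0, 71.3 and 82.8 in shRNA-CON and 86.9, 83.3, 75.1 and 89.0 in shRNA-RUS, a change of 0.22 (log2, SE 0.073, limma adjusted p = 0.0334). The groups overlapped on both days. Each call was lost in several fits without 1 library, that of day 5 without replicate 1, 2 or 3 of shRNA-CON or 2 or 3 of shRNA-RUS (−0.47 to −0.37), and that of day 7 without replicate 1, 2 or 3 of shRNA-CON or 1, 2 or 4 of shRNA-RUS (0.17 to 0.22), while the difference between the days was 0.68 (SE 0.17, limma adjusted p = 0.00664). *Polk*, a DNA polymerase that copies past lesions, had 14.2, 12.8, 13.5 and 13.3 scaled TPM in shRNA-CON against 11.6, 9.81, 10.3 and 13.8 in shRNA-RUS on day 5, a change of −0.25 (log2, SE 0.10, limma adjusted p = 0.0963). At day 7 it had 14.1, 14.2, 13.9 and 15.7 in shRNA-CON and 15.0, 16.4, 15.3 and 16.2 in shRNA-RUS, a change of 0.13 (log2, SE 0.055, limma adjusted p = 0.0714). Neither day passed the test, the difference between them did (0.37, limma adjusted p = 0.0305), and 8 fits without 1 library, of either shRNA and day, lost it (0.30 to 0.36). Without replicate 4 of shRNA-RUS the change on day 5 was −0.34 (adjusted p = 0.00738), and without replicate 4 of shRNA-CON that on day 7 was 0.17 (adjusted p = 0.0234).

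Of the remaining p53 targets, *Perp*, a membrane gene of p53-dependent death, was lower on both days (log2 change −0.41, adjusted p = 0.0175, and log2 change −0.55, adjusted p = 0.000159), as were *Ccng1* (log2 change −0.20, adjusted p = 0.0448, and log2 change −0.30, adjusted p = 0.000735) and the antiproliferative gene *Btg2* (log2 change −0.18, adjusted p = 0.0369, and log2 change −0.21, adjusted p = 0.00601). *Aen*, a nuclease, was higher on both days (log2 change 0.24, adjusted p = 0.00873, and log2 change 0.13, adjusted p = 0.00793). *Ei24* had a log2 change of −0.14 (adjusted p = 0.0758) on day 5 and was lower on day 7 (log2 change −0.14, adjusted p = 0.00525). The changes of *Gdf15*, *Plk2* and *Pidd1* did not pass the test on either day and ranged from −0.83 to 0.22. *Gdf15*, a scarce stress cytokine, turned on single libraries: its change was −0.83 (adjusted p = 0.0683) on day 5, −1.06 (adjusted p = 0.0285) without replicate 2 of shRNA-RUS and −0.49 (adjusted p = 0.0465) without replicate 4. It was −0.70 (adjusted p = 0.0763) on day 7 and −0.88 (adjusted p = 0.0392) without replicate 4 of shRNA-CON. *Pidd1* on day 7 was 0.22 (adjusted p = 0.241), and 0.34 (adjusted p = 0.0422) without replicate 1 of shRNA-RUS.

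More calls of day 5 than of day 7 turned on the choice of libraries and scaling. Of the 29 calls of day 5, 16 held in all alternatives; the 13 others, *Casp9*, *Mdm2* and *Trp53inp1* as given above among them, had log2 fold changes of at most 0.50 in size. *Mcl1* lost it with the replicate block (adjusted p = 0.0953). *Bid*, *Btg2*, *Casp2*, *Ccng1* and *Fadd* each lost the call of day 5 in 8 to 11 of 18 alternatives, among them 5 or 6 fits without 1 library, of either shRNA. *Perp* lost it without replicate 2 (−0.36, adjusted p = 0.0519) or 3 (−0.37, adjusted p = 0.0561) of shRNA-CON. *Perp* also lost it with quantile normalization (−0.27, adjusted p = 0.104). *Apaf1* lost it in 3 alternatives, at 0.11 with TPM as deposited (adjusted p = 0.319), 0.19 with scaling to the 75th percentile (adjusted p = 0.0839) and 0.27 with the replicate block (adjusted p = 0.0581). *Aen* lost it in 2, at 0.084 with TPM as deposited (adjusted p = 0.243) and 0.11 with quantile normalization (adjusted p = 0.101). *Mlkl* lost it in 3, with quantile normalization (adjusted p = 0.0833), the replicate block (adjusted p = 0.0707) and the fit over all 16 libraries (adjusted p = 0.0931). Of the 32 calls of day 7, 26 held in all alternatives. The exceptions were *Ripk3* and *Trp53inp1*, given above, *Bok* (lost in 10 of 18), *Xiap* (lost in 4, among them the fits without replicate 3 or 4 of shRNA-RUS), *Aen* and *Ei24* (each lost in 1, a change of scaling). Calls were also gained: 12 of the 20 members not called on day 5 and 6 of the 17 not called on day 7 passed the test in at least 1 alternative. Beside those given above, leaving out 1 library gave such a call to *Bik* on day 5 (0.70, adjusted p = 0.0356, without replicate 4 of shRNA-CON, against 0.46, adjusted p = 0.214, with it), and on day 7 to *Hrk* (−0.33, adjusted p = 0.0351, without replicate 4 of shRNA-RUS) and *Diablo* (0.18 without replicate 4 of shRNA-CON or replicate 3 of shRNA-RUS, adjusted p = 0.0361 and 0.0336).

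**Figure D4:**
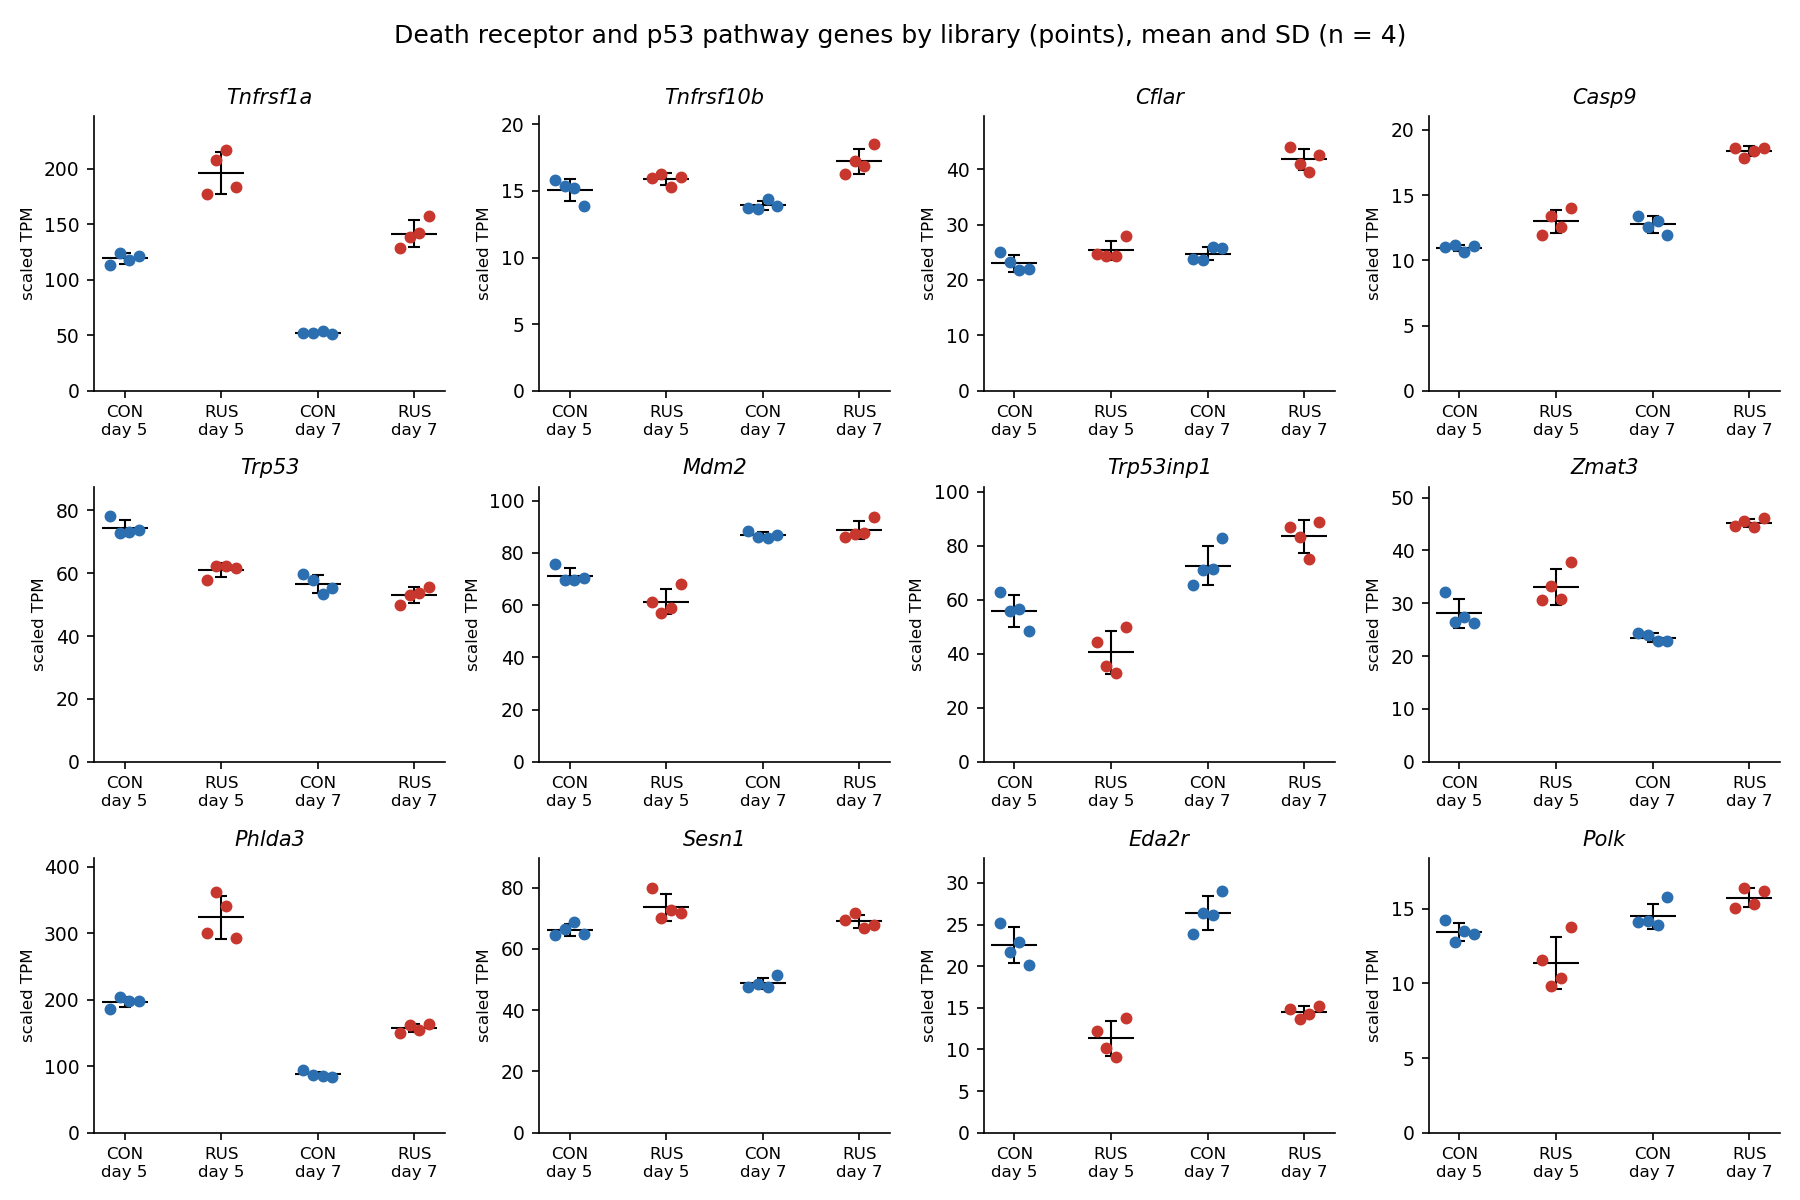
Scaled TPM (y axis, from 0) of 12 death receptor, caspase and p53 pathway genes in each library of shRNA-CON (blue) and shRNA-RUS (red) on day 5 and day 7 (x axis), with the mean and SD of 4 libraries. *Tnfrsf1a* and *Phlda3* lie above the controls on both days, *Cflar*, *Zmat3* and *Sesn1* separate widely on day 7, and *Eda2r* lies below the controls on both days.

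The effect of the knockdown differed between the days for 19 of the 49 members (38.8%), 13 with a higher and 6 with a lower log2 fold change on day 7, against 29.8% of all genes (15.2% higher and 14.6% lower). Among genes that averaged 1 TPM or more, 43.6% of 15899 were called, and 19 of the 48 members among them. With TPM as deposited, which raised the median difference of all genes from 0.038 to 0.19, the split was 19 and 3 of 22, and with quantile normalization 12 and 3 of 15. Not all of these calls held: that of *Bak1* was lost with TPM as deposited (−0.15, adjusted p = 0.183), that of *Bax* with quantile normalization (−0.12, adjusted p = 0.161), and those of *Bcl2l1* and *Mcl1* with both, while the calls of *Tnfrsf10b*, *Trp53* and *Polk* were lost in fits without 1 library as given above. Higher on day 7 were the BH3-only genes *Bmf* and *Bcl2l11*, *Tnfrsf1a*, *Tnfrsf10b* and *Cflar* of the receptor route, *Bcl2l2*, *Casp9*, *Trp53*, *Mdm2* and the p53 targets *Zmat3*, *Trp53inp1*, *Polk* and *Sesn1*. Lower on day 7 were *Bad*, *Cycs*, *Bax*, *Bak1*, *Bcl2l1* and *Mcl1*. Between the days themselves, 10 members rose and 20 fell in shRNA-CON (61.2% called, against 48.5% of all genes, 26.9% higher and 21.6% lower), and 17 rose and 19 fell in shRNA-RUS (73.5%, against 60.8% of all genes, 35% higher and 25.8% lower). Among genes that averaged 1 TPM or more, 61.1% were called in shRNA-CON and 74.1% in shRNA-RUS, near the shares of the members. The counts of members turn on the scaling, with 18 higher and 16 lower in shRNA-CON and 27 and 10 in shRNA-RUS when TPM were used as deposited, and only large changes are therefore given. *Hrk* rose by 1.09 in shRNA-CON and 1.55 in shRNA-RUS, *Mlkl* fell by 1.61 and 1.40, and *Ripk3* fell by 1.55 and 2.57 (log2 of day 7 over day 5).

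**Figure D5:**
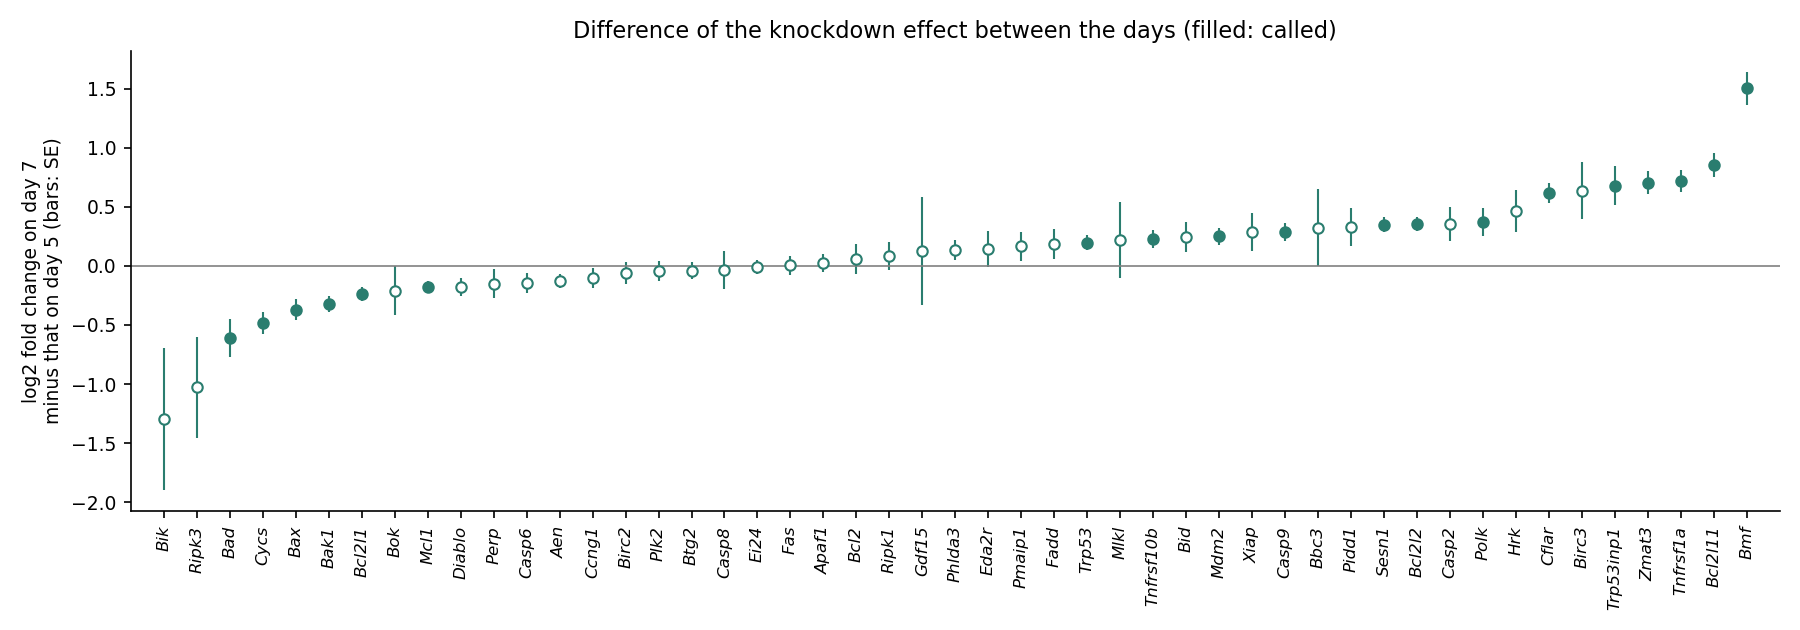
Log2 fold change of the knockdown on day 7 minus that on day 5 (y axis) for the 49 members in order of its value (x axis); bars are limma's SE over the 16 libraries, filled points were called. *Bmf* stands highest at 1.50, followed by *Bcl2l11* at 0.85, and *Bik* and *Ripk3* stand lowest with wide errors and no call.

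Other genes of the pathways, in lists written by hand, were counted too, against shares over all genes of 14.8% higher and 17.9% lower on day 5 and of 23.4% and 25.8% on day 7 (21% and 22.8%, and 32% and 33.2%, among genes that averaged 1 TPM or more). Of 31 other p53 targets, 8 were called higher and 13 lower on day 5, and 9 higher and 12 lower on day 7. *Cdkn1a* (p21), the p53 target that halts the cell cycle, had 271, 259.9, 268 and 286 scaled TPM in shRNA-CON against 329, 384, 353 and 319 in shRNA-RUS on day 5, a change of 0.35 (log2, SE 0.068, limma adjusted p = 0.00376). Day 7 values were 179, 179.9, 193 and 168 in shRNA-CON and 273, 280.0, 292 and 305 in shRNA-RUS, a change of 0.69 (log2, SE 0.053, limma adjusted p = 5.37e-06). It was higher in every knockdown library than in every control of its day. *Gadd45a*, a stress gene of growth arrest, was 0.87 and 1.48; *Steap3* was −0.96 and −0.34, *Spata18* −0.69 and −0.90, and *Ckap2* −0.44 and −0.89 (log2 fold changes of day 5 and day 7, all called).

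Of 34 other genes of the apoptosis machinery, 14 of 33 tested were called higher and 4 lower on day 5, and 11 of 32 higher and 10 lower on day 7, beside the same shares over all genes. *Birc5* (survivin), an inhibitor of apoptosis that also serves mitosis, was −1.44 and −1.72, the Bax activator *Moap1* 1.04 and 0.56, the kinase *Dapk1* 0.21 and 0.84, and the death receptor *Tnfrsf21* 0.63 and 0.78 (log2 fold changes of day 5 and day 7, all called). The decrease of *Birc5* stands beside that of the 6 proliferation markers on both days, and the part of fewer dividing cells in it was not tested. Of 18 tested relatives and regulators of p53, 2 were called higher and 6 lower on day 5, and 8 higher and 6 lower on day 7. The checkpoint kinases *Chek1* (−1.25 and −0.77) and *Chek2* (−0.24 and −0.78) and the p53 relative *Trp73* (−0.86 and −0.79) were lower on both days, and *Ppp1r13l*, an inhibitor of p53, was higher (0.38 and 0.86).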

How the data were processed

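RNA-seq was measured in 16 libraries, 4 for each shRNA and day, and samples were grouped by their labels. The authors aligned polyA reads with STAR to mm10 with the GRCm38.99 transcripts, used RSEM for quantification, and deposited TPM (transcript abundance corrected for length, with a fixed total) per library, 1 table a day; tool versions are not given in the sources used here. The deposited base mean, the authors' mean of DESeq2-normalized counts (a signal averaged over the libraries of a day), was used for low counts alone. The remaining deposited columns hold the authors' DESeq2 results (log2 fold changes, standard errors, test statistics and p-values) and were not used.

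TPM were divided by median-ratio library factors, which lay between 0.9202 and 1.113 on day 5 and between 0.9909 and 1.01 on day 7, and tested as log2(scaled TPM + 0.1) with limma 3.58.1 in R 4.3.3 (lmFit, eBayes with a trend) over the 22581 genes of day 5 and the 24606 of day 7 with a mean of at least 0.1 TPM; 1 fit over 16 libraries (23789 genes) gave the differences between days. The pseudocount lowers fold changes of scarce genes. Ratios used TPM as deposited. TPM keep no depth, so the read number of a library is unknown; 25615 to 29126 genes were above 0. Of the day 5 table, 3 lines without a gene name were left out. Values of each library are given for members called on either day with a log2 fold change of at least 0.58 in size and a mean of at least 1 TPM, for those whose effect differed between days, and for *Trp53*, *Mdm2*, *Bax*, *Bak1* and *Bcl2*. Of each other list, up to 4 called genes with the largest change and a mean of at least 1 TPM on either day were named, and *Cdkn1a* in any case; 1 further gene of that rule is not reported here. Members and lists were chosen with earlier results of these data known. Scripts were tested on simulated data. Alternatives covered the pseudocount, the filter, the scaling, the trend, a replicate block, a fit over all libraries and each library left out. Sequence windows came from RefSeq (GRCm38.p6), and exons and positions from the GENCODE annotation of GRCm38. Python 3.11.15 with numpy 2.4.6, pandas 2.3.3 and matplotlib 3.10.9 was used for sequences and plots.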

Additional observations from a re-analysis of the deposited data

Results flagged for a closer look

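In 196 groups of 4 libraries (49 members in 4 groups), the highest or lowest library was tested by its gap to the nearest library divided by the range of the group, against Dixon's 95% critical value. It was exceeded in 18 groups; chance alone gives about 1 in 20, or 9.8. Replicate 4 of shRNA-RUS on day 5 stood apart for *Bad* (0.847), *Bok* (0.949), *Bcl2l2* (0.967) and *Cflar* (0.866). Replicate 1 of shRNA-RUS on day 5 stood apart for *Trp53* (0.833). On day 5, replicate 1 of shRNA-CON stood apart for *Bcl2l11* (0.874), *Trp53* (0.831) and *Mdm2* (0.875), and replicate 3 for *Diablo* (0.906). On day 7, replicate 1 of shRNA-RUS stood apart for *Bbc3* (0.915), *Casp2* (0.833) and *Gdf15* (0.891), and replicate 4 for *Ripk1* (0.887). Among the controls of day 7, replicate 4 stood apart for *Bak1* (0.958), *Polk* (0.851) and *Pidd1* (0.871), and replicate 1 for *Pmaip1* (0.835) and *Mlkl* (0.868).

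The knockdown effect differed between day 5 and day 7 for 19 members, tested as an interaction in limma over the 16 libraries. Of all genes 29.8% were called, and 43.6% of those that averaged 1 TPM or more. The log2 fold change was higher on day 7 by 1.50 for *Bmf*, 0.85 for *Bcl2l11*, 0.72 for *Tnfrsf1a*, 0.70 for *Zmat3*, 0.68 for *Trp53inp1*, 0.61 for *Cflar*, 0.37 for *Polk*, 0.35 for *Bcl2l2*, 0.35 for *Sesn1*, 0.29 for *Casp9*, 0.25 for *Mdm2*, 0.23 for *Tnfrsf10b* and 0.20 for *Trp53*. The difference was −0.61 for *Bad*, −0.49 for *Cycs*, −0.37 for *Bax*, −0.32 for *Bak1*, −0.24 for *Bcl2l1* and −0.18 for *Mcl1*. Day and culture medium changed together, so that time and differentiation cannot be told apart.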

How the results depend on the processing

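Of the members called, 16 of 29 on day 5, 26 of 32 on day 7, 12 of 19 for the difference between the days, 25 of 30 between days in shRNA-CON and 23 of 36 in shRNA-RUS were called in all alternatives. With TPM as deposited, 7 members were called higher on day 5, 18 were higher on day 7 than on day 5 in shRNA-CON, and 27 were higher and 10 lower in shRNA-RUS. Changes between the days that were called with the library factors or with TPM as deposited and turned direction between them were *Bcl2l1* (0.013) and *Diablo* (0.016) in shRNA-CON, and *Bak1* (0.12), *Diablo* (0.011), *Trp53* (0.13), *Sesn1* (0.23), *Btg2* (0.31) and *Ei24* (0.27) in shRNA-RUS; with quantile normalization, *Ei24* turned in shRNA-CON (0.15) and in shRNA-RUS (0.33). Further changes called with neither scaling, such as those of *Bid* in shRNA-RUS and *Bcl2l11* in shRNA-CON, also changed sign. Leaving out 1 library gave 9 to 14 members higher and 11 to 20 lower on day 5, with the fewest without replicate 3 of shRNA-CON and the most without replicate 4 of shRNA-RUS, 18 to 21 higher and 11 to 14 lower on day 7, and 16 to 22 called for the difference between the days. For *Gm20754*, leaving out 1 library gave −0.77 to −0.081 on day 5 and −1.72 to −0.83 on day 7, where the fit without replicate 1 of shRNA-RUS passed the test (−1.72, limma adjusted p = 0.0359); a filter at a mean of 1 TPM left it out.

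Replicate numbers gave no clear pairing of the samples: deviations of same-numbered libraries correlated between −0.23 and −0.024 on day 5 and between 0.023 and 0.11 on day 7, and 0 of 4 numbers on day 5 and 2 of 4 on day 7 correlated best with their own. The labels do not say whether libraries were paired, and so few correlations cannot exclude it. With the replicate block, 8 members were called higher and 10 lower on day 5, 20 and 11 on day 7, and 17 for the difference between the days; *Gm20754* on day 7 was −1.28 (limma adjusted p = 0.0358). The causes of these shifts were not tested. Low members rest on few counts. The authors' base means on day 5 and day 7 were 17.1 and 7.54 for *Bik*, 83.9 and 17.7 for *Ripk3*, and 85.2 and 26.0 for *Mlkl*. Their counting error was not estimated.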
